A study of Mus musculus with 6 samples.

Results

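The genes described here are named for proteins of the mitochondrial ribosome, Mrpl for its large subunit and Mrps for its small subunit. Despite their names, Mrps18a and Mrps30 belong to the large subunit and Mrps36 to neither. All rows were taken from a mouse RNA sequencing table by symbol alone (Mrpl or Mrps, a number and at most a letter). This gave 78 of the 24672 genes in the table. The gene set itself was chosen with earlier results of these data known. The libraries compare female germline stem cells (FGSC), cultured ovarian cells described as precursors of oocytes, with the same cells after induced differentiation (Dif-FGSC), in 3 libraries each. The series title concerns retinoic acid and the start of meiosis. All cells were C57BL/6 at passages above 20, and both media held 10% fetal bovine serum and 10 ng/mL bFGF. FGSC grew on inactivated STO fibroblasts, a mouse embryonic feeder line, with LIF at 10 ng/mL, EGF at 20 ng/mL and GDNF at 10 ng/mL. Dif-FGSC had been transferred onto inactivated granulosa cells, the somatic cells that surround an oocyte, with BMP4 at 10 ng/mL and retinoic acid at 0.1 µmol/L. Feeder cells, growth factors, BMP4 and retinoic acid therefore changed together, and their parts in any difference cannot be told apart.

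The mitochondrial ribosome makes the membrane-embedded subunits of oxidative phosphorylation that mitochondrial DNA encodes. Its RNA comes from mitochondrial DNA, while every one of its proteins is encoded in the nucleus, made on cytosolic ribosomes and imported. Some of these proteins descend from bacterial ribosomal proteins, and others have no bacterial counterpart. Mitochondria multiply greatly while an oocyte grows, so genes of mitochondrial translation are of general interest in the female germ line.

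Values were deposited as FPKM, fragment counts scaled for transcript length and for the mapped fragments of the library. Small FPKM values move in steps of 1 fragment, and these steps put the depth between 17.3 M and 26.9 M fragments per library. For the 56 members whose values allowed an estimate, the smallest number of fragments in any library was 124, for Mrpl41, and the median over members of the lowest library was 1380. These numbers assume the longest transcript of each member in the GENCODE annotation of GRCm38, and a shorter one would give fewer fragments. A 0 in this table can be a failed estimate, since Rps27, a ribosomal protein gene that every cell uses, was also listed at 0 in all 6 libraries. Marker levels are therefore given as listed. Of 10 germ cell markers 9 were below 0.1 FPKM in all 6 libraries, Dazl, Gfra1, Sycp3, Figla and Nobox were listed at 0 throughout, and the summed level was 0 to 0.0696 FPKM in FGSC and 0.108 to 0.165 FPKM in Dif-FGSC. Of 9 blood and mast cell markers 7 could be tested. Of these 6 (85.7%) were higher in Dif-FGSC, against 36.5% of all genes tested. The 9 markers summed to 696 to 750 FPKM in FGSC and 950 to 952 FPKM in Dif-FGSC. Of 6 fibroblast markers 5, and of 5 granulosa markers 4, were below 0.1 FPKM in all libraries. Fibroblast markers summed to 0.289 to 0.564 FPKM in FGSC and 0.0765 to 0.15 FPKM in Dif-FGSC, with Col3a1 and Lum listed at 0 throughout. Granulosa markers summed to 0.411 to 0.615 FPKM and 0.272 to 0.452 FPKM, with Foxl2, Fshr, Cyp19a1 and Inha listed at 0. FGSC and Dif-FGSC are therefore used below as the names of the labels, and the part of the differing marker levels in the results was not tested.

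Most mitochondrial ribosomal protein genes were lower in Dif-FGSC, by small amounts, and a minority was higher. A mean of at least 1 FPKM was required for testing, which 77 of 78 members passed, and no member was at 0 in any library. Differences are given on the scale of log2(FPKM + 1), Dif-FGSC minus FGSC, from a limma fit over all 9162 genes that passed. A gene counts as changed where its Benjamini-Hochberg adjusted p is under 0.05. Of the 77 members 40 fell (51.9%), 13 rose (16.9%) and 24 did not pass. The 40 include Mrps36, which belongs to neither subunit. Over all genes tested, 28.6% fell and 36.5% rose. The median log2 difference was -0.129 over the members and 0.029 over all genes tested, and 54 members lay below 0 and 23 above. The labels do not say whether replicate libraries are separate cultures, and the p-values speak only of the spread between them, which may be technical. In RNA from a whole culture, fewer cells of a type and less RNA per cell cannot be told apart.

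The split between directions depended on how the libraries were scaled. With each library rescaled to the same total (TPM), 20 members rose and 32 fell, so that 38.5% of called members were higher in place of 24.5%. Median-ratio scaling moved the split the other way, to 9 rises and 45 falls (16.7% higher). The TPM rescaling moved the share of higher calls over all genes from 56.0% to 68.3%. The 3 Dif-FGSC libraries lay entirely below the 3 FGSC libraries for 43 tested members and entirely above for 14, against 31.0% and 39.6% of all genes tested.

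Differences of the members were narrow. Of 77 members, 24 were called and changed by 1.2-fold or more in FPKM + 1 (20 down and 4 up). By the same rule it was 3576 of the 9162 genes tested (39.0%). Mrps23 was the one member past 1.5-fold, and no member reached 2-fold. Of all genes tested, 9.8% were called and reached 1.5-fold, and 2.6% were called and reached 2-fold. The central range of the members, from the 5th to the 95th percentile, ran from -0.46 to 0.26, and that of all genes from -0.48 to 0.67. The 5th percentiles were thus close and the 95th apart. Between them, the 25th percentile was -0.264 for the members and -0.172 for all genes, and the 75th was 0.058 and 0.249.

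**Figure D1:**
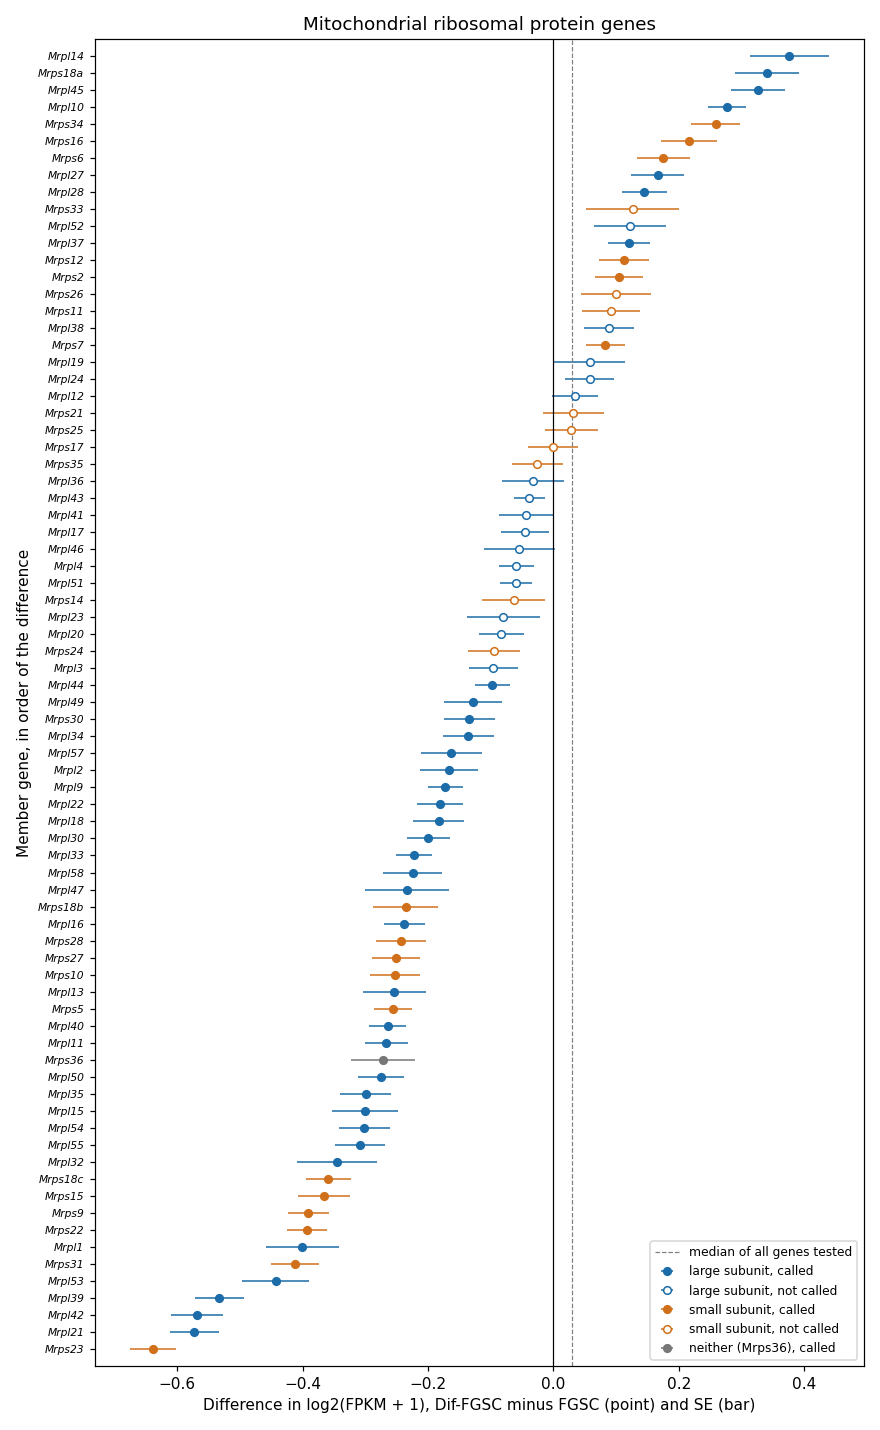
Difference in log2(FPKM + 1) between 3 Dif-FGSC and 3 FGSC libraries (x axis) for each of the 77 tested members (y axis, in order), with the standard error as a bar. Filled points passed an adjusted p under 0.05 in limma, colours give the subunit, and the dashed line is the median of all genes tested. The order runs from Mrps23 at -0.64 to Mrpl14 at 0.38.

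The largest fall was that of Mrps23, a mitochondria-specific protein of the small subunit. Its level was 32.4, 32.2 and 30.7 FPKM in FGSC and 19.7, 19.6 and 20.8 FPKM in Dif-FGSC. The groups were far apart relative to their spread, with a log2 difference of -0.64 ± 0.037 (SE; limma adjusted p = 6.51e-06). Mrpl21, a large-subunit protein of bacterial descent, was at 39.2, 39.0 and 40.1 FPKM in FGSC and at 24.9, 27.3 and 26.3 FPKM in Dif-FGSC. It fell by 0.57 ± 0.039 on the log2 scale (limma adjusted p = 1.38e-05).

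Mrpl42 and Mrpl39, mitochondria-specific proteins of the large subunit, fell by similar amounts. Mrpl42 was at 80.1, 78.8 and 83.8 FPKM in FGSC and at 55.2, 56.3 and 51.3 FPKM in Dif-FGSC, a log2 difference of -0.57 ± 0.042. Mrpl39 was at 38.5, 39.6 and 40.2 FPKM and then at 25.7, 27.3 and 27.9 FPKM, a log2 difference of -0.53 ± 0.039. In both genes the highest Dif-FGSC library was more than 10 FPKM below the lowest FGSC library. Mrpl53, which sits near the base of the stalk that recruits translation factors, was at 68.9, 77.5 and 78.0 FPKM and then at 52.6, 54.7 and 56.8 FPKM (-0.44 ± 0.054). FGSC 1 was lower than the other FGSC libraries for Mrpl53, and still above every Dif-FGSC library.

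Mrps31, a mitochondria-specific small-subunit protein, was at 35.2, 35.5 and 34.4 FPKM in FGSC and at 24.8, 26.3 and 27.1 FPKM in Dif-FGSC (-0.41 ± 0.039). Mrpl1, the counterpart of the bacterial protein of the L1 stalk, was at 16.4, 15.5 and 14.6 FPKM and then at 10.7, 12.1 and 11.7 FPKM (-0.40 ± 0.058). Mrps22, a small-subunit gene linked to ovarian insufficiency in humans, was at 48.6, 50.2 and 51.2 FPKM and then at 38.45, 36.9 and 38.2 FPKM (-0.39 ± 0.033). These 8 genes were chosen as the largest falls among called members whose groups did not overlap, so the gap between groups follows from the choice. Their limma adjusted p lay between 6.51e-06 for Mrps23 and 0.000591 for Mrpl1.

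Mrpl14 had the largest rise. It encodes a large-subunit protein at the interface with the small subunit, and was at 55.9, 51.6 and 56.9 FPKM in FGSC and at 70.4, 77.9 and 66.3 FPKM in Dif-FGSC. The log2 difference was 0.38 ± 0.063 (SE; limma adjusted p = 0.00124), with the Dif-FGSC libraries spread more widely than the FGSC libraries. Mrps18a, which despite its name is part of the large subunit, was at 51.5, 54.2 and 46.9 FPKM and then at 64.1, 65.5 and 64.1 FPKM (0.34 ± 0.051). Mrpl45, which lies at the exit of the peptide tunnel and ties the ribosome to the inner membrane, was at 32.9, 32.2 and 30.4 FPKM and then at 38.5, 40.1 and 41.9 FPKM (0.33 ± 0.043).

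Mrpl10 anchors the stalk, and was at 24.1, 23.5 and 23.4 FPKM in FGSC and at 29.4, 28.6 and 28.7 FPKM in Dif-FGSC (0.28 ± 0.030). Mrps34, which the small subunit needs for its stability, was at 56.3, 56.8 and 52.1 FPKM and then at 67.0, 66.6 and 64.5 FPKM (0.26 ± 0.039). Mrps16, a small-subunit protein of bacterial descent, was at 67.5, 72.3 and 69.3 FPKM and then at 76.4, 83.8 and 83.4 FPKM (0.22 ± 0.044). As for the falls, the risen genes described here were chosen among called members whose groups did not overlap.

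Mrps6, the counterpart of bacterial S6, was at 34.7, 35.5 and 33.7 FPKM in FGSC and at 38.1, 38.0 and 41.6 FPKM in Dif-FGSC (0.18 ± 0.043). Mrpl27, whose bacterial counterpart reaches towards the peptidyl transferase centre, was at 33.5, 35.8 and 35.3 FPKM and then at 41.3, 38.0 and 38.5 FPKM (0.17 ± 0.042). Over these 8 risen genes the limma adjusted p lay between 0.000139 for Mrpl10 and 0.00955 for Mrpl27. The calls of all 16 genes described here, chosen for the size of their differences, held under each of the 14 alternative fits tried.

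**Figure D2:**
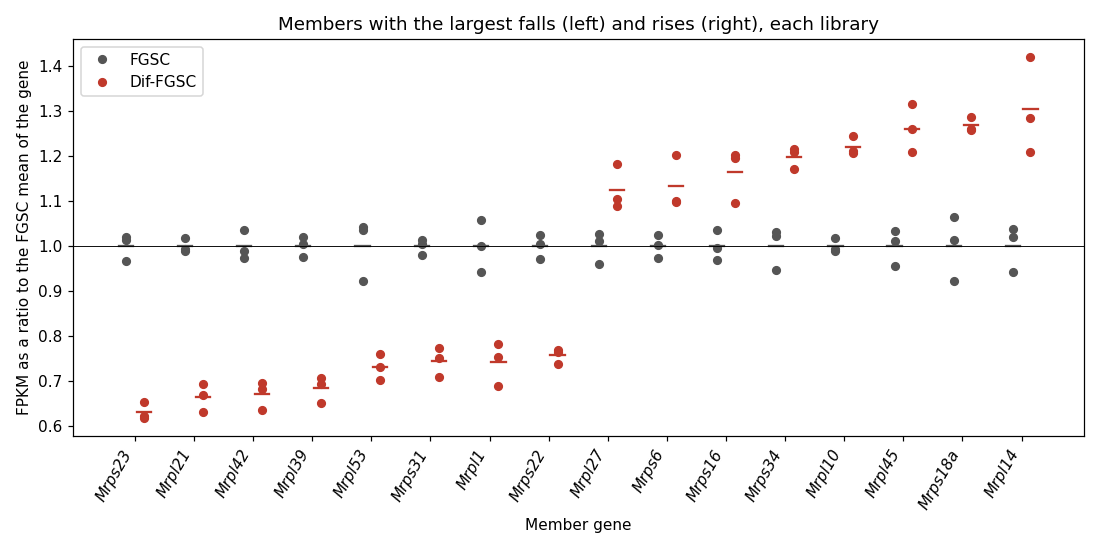
FPKM in each library divided by the FGSC mean of the gene (y axis) for the 8 members with the largest falls and the 8 with the largest rises (x axis). Points are single libraries, 3 per group, and short lines are group means. The genes were chosen among called members whose groups do not overlap. Every Dif-FGSC point of the left genes therefore lies below every FGSC point, and every one of the right genes above.

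Short motifs of known factors were looked up around the start sites of the members. Promoter windows of RefSeq (GRCm38.p6), from 250 bases before to 50 bases after a start site, were found for 69 members, with 75 windows in all. They were searched on both strands for letters bound by factors known to act on nuclear genes of mitochondria. NRF1, nuclear respiratory factor 1, binds GCGCANGCG, which 21.3% of member windows held, against 15.4% of the windows of tested genes and 6.2% of all windows. The ETS letters CCGGAAGT, which GABP (NRF2) reads, were in 16%, 9.7% and 3.9%. The YY1 letters AAGATGGCG were in 10.7%, 3.8% and 1.4%. For comparison, the CCAAT box was in 40.0% of member windows and 38.4% of those of tested genes, the E-box CACGTG in 9.3% and 10.7%, and the TATA box TATAAA in 6.7% and 6.3%.

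Among the members, the NRF1 letters stood in 23.7% of 38 windows of fallen genes, 23.1% of 13 windows of risen genes and 20.0% of 20 windows of genes that did not pass. The ETS letters were in 13.2%, 7.7% and 25% of these windows, and the YY1 letters in 7.9%, 15.4% and 15%. Of the 13 windows of risen genes, these are 1 window with the ETS letters and 2 with the YY1 letters. A match is a description of the letters and shows no binding. Pairs of 1 fallen and 1 risen gene that hold the same letters are printed below, 5′ to 3′ along the gene, with the matches in capitals. They were chosen after their values were seen, and whether a motif goes with a direction was not tested. With the NRF1 letters, Mrpl39 (chr16:84735195-84735494, minus strand) fell and Mrpl45 (chr11:97315466-97315765, plus strand) rose. The capitals of Mrpl39 are 2 overlapping matches on opposite strands, and Mrpl45 has 3 separate ones.
Mrpl39: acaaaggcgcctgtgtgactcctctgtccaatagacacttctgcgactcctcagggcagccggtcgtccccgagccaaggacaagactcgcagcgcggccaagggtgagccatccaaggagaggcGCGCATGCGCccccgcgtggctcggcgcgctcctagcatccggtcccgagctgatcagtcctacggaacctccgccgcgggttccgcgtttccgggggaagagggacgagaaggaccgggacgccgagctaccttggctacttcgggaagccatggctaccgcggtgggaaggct
Mrpl45: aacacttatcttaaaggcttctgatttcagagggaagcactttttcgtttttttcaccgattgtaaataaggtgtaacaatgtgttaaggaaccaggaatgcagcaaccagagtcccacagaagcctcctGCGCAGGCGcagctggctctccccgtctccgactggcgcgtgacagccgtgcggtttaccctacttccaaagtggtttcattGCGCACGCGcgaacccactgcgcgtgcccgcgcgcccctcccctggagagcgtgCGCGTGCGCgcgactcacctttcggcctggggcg

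With the YY1 letters, Mrpl42 (chr10:95501900-95502199, minus strand) fell and Mrps18a (chr17:46110754-46111053, plus strand) rose. In both genes the match lies just after the start site, its first base at position 28 of Mrpl42 and position 12 of Mrps18a.
Mrpl42: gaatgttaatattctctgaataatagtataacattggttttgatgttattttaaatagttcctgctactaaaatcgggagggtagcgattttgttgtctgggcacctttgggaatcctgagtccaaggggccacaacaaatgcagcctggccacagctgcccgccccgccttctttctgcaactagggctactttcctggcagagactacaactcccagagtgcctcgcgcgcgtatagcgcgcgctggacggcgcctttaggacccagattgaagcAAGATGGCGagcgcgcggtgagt
Mrps18a: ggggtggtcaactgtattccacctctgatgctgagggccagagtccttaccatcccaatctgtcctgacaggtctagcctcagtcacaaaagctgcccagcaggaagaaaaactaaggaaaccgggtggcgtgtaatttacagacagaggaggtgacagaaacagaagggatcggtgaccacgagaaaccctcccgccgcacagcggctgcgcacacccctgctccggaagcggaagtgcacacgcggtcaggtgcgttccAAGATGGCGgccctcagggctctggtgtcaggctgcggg

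With the ETS letters, Mrps22 (chr9:98601630-98601929, minus strand) fell and Mrpl27 (chr11:94653541-94653840, plus strand) rose. The first base of the match is at -11 in Mrps22 and at -55 in Mrpl27, counted from the start site.
Mrps22: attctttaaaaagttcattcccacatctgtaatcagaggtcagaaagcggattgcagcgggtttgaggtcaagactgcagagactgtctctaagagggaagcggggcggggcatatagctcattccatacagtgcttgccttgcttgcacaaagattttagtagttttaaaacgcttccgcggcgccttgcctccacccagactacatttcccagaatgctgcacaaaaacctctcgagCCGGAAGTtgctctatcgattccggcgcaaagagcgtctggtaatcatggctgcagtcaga
Mrpl27: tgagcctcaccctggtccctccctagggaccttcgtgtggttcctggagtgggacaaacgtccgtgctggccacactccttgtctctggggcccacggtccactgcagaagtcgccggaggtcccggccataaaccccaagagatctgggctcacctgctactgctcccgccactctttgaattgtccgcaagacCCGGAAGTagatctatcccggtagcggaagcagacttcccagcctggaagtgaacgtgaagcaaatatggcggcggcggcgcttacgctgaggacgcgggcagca

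By subunit, 28 of 50 tested large-subunit genes fell (56.0%), 7 rose (14.0%) and 15 did not pass, with a median log2 difference of -0.135. In the small subunit 11 of 26 fell (42.3%), 6 rose (23.1%) and 9 did not pass, with a median of -0.044. The shares of all genes tested were 28.6% and 36.5%. Without FGSC 3, 3 small-subunit genes rose. After rescaling to TPM, 20 of 50 large-subunit and 11 of 26 small-subunit genes fell, and 11 and 9 rose. The larger share of falls in the large subunit was thus not kept under that scaling. The difference between the subunits was not tested. Among the 48 members of bacterial descent 24 fell and 10 rose, with a median of -0.116, and among the 28 mitochondria-specific members 15 fell and 3 rose, with a median of -0.113. Mrps36 belongs to neither subunit, since its protein is now known as a part of the 2-oxoglutarate dehydrogenase complex. It was at 13.6, 15.1 and 14.9 FPKM in FGSC and at 12.4, 11.5 and 11.7 FPKM in Dif-FGSC, and fell by 0.27 ± 0.051 on the log2 scale.

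Within the large subunit, the stalk that recruits translation factors held both directions. Mrpl10 rose, Mrpl11 and Mrpl53 fell, and Mrpl12 did not pass. Mrpl11, at the stalk base, was at 26.1, 26.9 and 28.0 FPKM in FGSC and at 22.2, 22.3 and 22.3 FPKM in Dif-FGSC (-0.27 ± 0.034). Mrpl12, the stalk protein that contacts the factors, was at 265, 272 and 252 FPKM and then at 266, 280 and 263 FPKM, and these groups overlapped (0.03 ± 0.037).

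Of the peptidyl transferase centre, where the peptide bond forms, Mrpl16 and Mrpl2 fell, Mrpl27 rose and Mrpl3 did not pass (median -0.131). Mrpl16 was at 67.0, 70.2 and 67.9 FPKM in FGSC and at 58.8, 55.9 and 58.7 FPKM in Dif-FGSC (-0.24 ± 0.033). The smaller difference of Mrpl2 (-0.17 ± 0.047) was no longer called after rescaling to TPM, or without FGSC 2 or Dif-FGSC 3. Of 6 tested genes of the exit tunnel, through which the new peptide leaves, Mrpl22 and Mrpl47 fell, Mrpl45 rose and Mrpl17, Mrpl23 and Mrpl24 did not pass (median -0.063). Mrpl22 was at 98.4, 103 and 96.3 FPKM and then at 84.1, 89.9 and 88.0 FPKM (-0.18 ± 0.036). The call of Mrpl47 (-0.23 ± 0.067) ended after rescaling to TPM and without Dif-FGSC 1 or Dif-FGSC 2.

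The central protuberance, the crown that faces the head of the small subunit, had 3 falls and no rise among 6 tested genes (median -0.119). Of all genes tested, 28.6% fell and 36.5% rose. Mrpl55 was at 5.16, 5.25 and 5.43 FPKM in FGSC and at 4.17, 4.06 and 3.98 FPKM in Dif-FGSC (-0.31 ± 0.041). Mrpl40 was at 58.7, 61.0 and 58.9 FPKM and then at 49.0, 48.8 and 50.4 FPKM (-0.26 ± 0.030). Mrpl18 fell by 0.18 ± 0.041, a call that ended after rescaling to TPM, and Mrpl38, Mrpl46 and Mrpl52 did not pass, with log2 differences of 0.09, -0.05 and 0.12.

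The other large-subunit genes that fell were Mrpl9, Mrpl13, Mrpl15, Mrpl30, Mrpl32, Mrpl33, Mrpl34, Mrpl35, Mrpl44, Mrpl49, Mrpl50, Mrpl54, Mrpl57, Mrpl58 and Mrps30, with log2 differences from -0.10 in Mrpl44 to -0.35 in Mrpl32. Mrpl32 (54.3, 59.6 and 54.8 FPKM, then 40.4, 47.8 and 44.1 FPKM) matures by cleavage in the matrix before it joins the ribosome. Mrpl58, a ribosome rescue factor that became a fixed part of the large subunit, was at 19.1, 20.3 and 18.2 FPKM in FGSC and at 17.0, 16.1 and 15.8 FPKM in Dif-FGSC (-0.22 ± 0.047). Of these genes, Mrpl34, Mrpl44, Mrpl49, Mrpl57 and Mrps30 were no longer called after rescaling to TPM, and all but Mrpl34 also lost their call without at least 1 of the libraries. The groups of Mrpl49 overlapped, FGSC 3 at 34.0 FPKM lying below Dif-FGSC 3 at 34.4 FPKM, which makes it the one called member with overlapping groups.

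The remaining large-subunit rises were Mrpl28, with a log2 difference of 0.14 ± 0.036, and Mrpl37, with 0.12 ± 0.034. Mrpl28 was at 75.6, 80.3 and 75.6 FPKM in FGSC and at 85.3, 87.9 and 83.1 FPKM in Dif-FGSC. The call of Mrpl37 ended with median-ratio scaling and without Dif-FGSC 1. Large-subunit genes that did not pass ranged from -0.10 in Mrpl3 to 0.12 in Mrpl52, and included Mrpl4, Mrpl19, Mrpl20, Mrpl36, Mrpl41, Mrpl43 and Mrpl51.

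In the small subunit, the proteins of the messenger RNA channel and the decoding site were divided. Mrps5 was at 63.1, 66.7 and 63.5 FPKM in FGSC and at 53.8, 53.5 and 54.0 FPKM in Dif-FGSC, and fell by 0.26 ± 0.030 on the log2 scale. Mrps12 and Mrps7 rose by 0.11 ± 0.040 and 0.08 ± 0.031, and Mrps11 and Mrps24 did not pass (0.09 and -0.10). The rises of Mrps7, Mrps12 and of Mrps2 (0.10 ± 0.038) were near the threshold, with limma adjusted p of 0.0469, 0.0384 and 0.0441. Each of the 3 lost its call with median-ratio scaling, with no filter on low values and without any of several single libraries, among them FGSC 3.

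Mrps9 and Mrps15, both of bacterial descent, fell by 0.39 ± 0.033 and 0.37 ± 0.041. Mrps9 was at 83.6, 83.6 and 82.4 FPKM in FGSC and at 62.1, 61.6 and 65.9 FPKM in Dif-FGSC. Mrps15 was at 66.4, 66.3 and 62.1 FPKM and then at 49.9, 48.3 and 52.4 FPKM. Mrps10, Mrps27 and Mrps28 fell by 0.25 ± 0.040, 0.25 ± 0.038 and 0.24 ± 0.040, and Mrps27 is a pentatricopeptide repeat protein, a kind that binds RNA. The small-subunit genes that did not pass were Mrps11, Mrps14, Mrps17, Mrps21, Mrps24, Mrps25, Mrps26, Mrps33 and Mrps35, from -0.10 in Mrps24 to 0.13 in Mrps33.

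The 3 paralogues of bacterial S18 did not move together. Mrps18a, on the large subunit, rose as given above. Mrps18b, on the small subunit, was at 20.9, 20.5 and 19.7 FPKM in FGSC and at 15.9, 18.3 and 17.3 FPKM in Dif-FGSC (-0.24 ± 0.052). Mrps18c, also on the small subunit, was at 95.8, 98.9 and 102 FPKM and then at 74.7, 80.0 and 75.7 FPKM (-0.36 ± 0.036). Groups did not overlap in any of the 3 genes.

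Levels per length spanned a wide range. The 4 highest members by mean were Mrpl12 at 266 FPKM, Mrpl18 at 164 FPKM, Mrpl33 at 154 FPKM and Mrpl54 at 125 FPKM. Mrpl18 was at 176, 179 and 167 FPKM in FGSC and at 149, 149 and 161 FPKM in Dif-FGSC, and Mrpl33 at 170, 161 and 167 FPKM and then at 144, 141 and 141 FPKM. Mrpl54 was at 144, 139 and 131 FPKM and then at 108, 113 and 114 FPKM. Levels of Mrpl18 and Mrpl33 overlapped in FGSC, and Mrpl12 stood above both in every library.

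The 4 lowest listed levels among tested members were those of Mrpl55, Mrps17, Mrpl35 and Mrpl41. Values of Mrpl55 and Mrps17 carry more than 6 digits, like those of Mrpl48 described next, so their levels may not be comparable with the rest. Mrps17 was at 6.46, 6.87 and 6.96 FPKM in FGSC and at 6.80, 6.76 and 6.71 FPKM in Dif-FGSC, the closest match of the 2 groups among the members (-0.00 ± 0.040). Mrpl35 was at 8.45, 7.92 and 8.18 FPKM and then at 6.61, 6.26 and 6.52 FPKM, and fell by 0.30 ± 0.041. Mrpl41 was at 8.58, 9.04 and 9.22 FPKM and then at 8.33, 8.96 and 8.67 FPKM, with overlapping groups.

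Mrpl48, of the central protuberance, had a mean below 1 FPKM and was the one member not tested. It was at 0.891, 0.974 and 1.03 FPKM in FGSC and at 0.785, 0.674 and 0.612 FPKM in Dif-FGSC. In a fit with no filter on low values it fell by 0.22 ± 0.049 (limma adjusted p = 0.0145). Its level cannot be set beside those of other members. Multiplied by 7, its values have at most 5 decimals in all 6 libraries (6.24, 6.82, 7.20, 5.49, 4.72 and 4.28 FPKM), which are the digits of a mean over 7 entries. What these entries are is not given in the sources used here.

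The same was seen at 3 entries in 6 members, namely Mrpl10, Mrpl15, Mrpl42, Mrps10, Mrps11 and Mrps23. In all, 22 of 78 members (28.2%) had values of more than 6 significant digits, against 38.8% of all genes tested. The other 56 members had at most 6 significant digits in every library. A divisor that is the same in every library leaves the ratio of FPKM between groups as it is but changes the level. It also changes a difference in log2(FPKM + 1) and whether a gene passes the filter of 1 FPKM. For Mrpl48 the ratio of mean FPKM, Dif-FGSC over FGSC, was 0.7155, a larger fall than its difference in log2(FPKM + 1) shows. Among the 56 members, 28 fell and 10 rose, with a median log2 difference of -0.097.

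Whether fragments were counted by strand is not given in the sources used here, and reads of overlapping genes may be shared. In the GENCODE annotation of GRCm38, exons of 23 members overlap those of another protein-coding gene, 20 of them on the opposite strand. Mrpl14 overlaps Tmem63b, which was at 10.3, 10.2 and 10.5 FPKM in FGSC and at 14.7, 14.3 and 13.7 FPKM in Dif-FGSC, a rise of 0.42 ± 0.036 beside that of Mrpl14. Mrps6 shares exons on the same strand with Slc5a3, which rose from 0.902 ± 0.110 to 1.38 ± 0.123 FPKM (SD, n = 3). Mrpl21, which fell, overlaps Ighmbp2 (3.02 ± 0.283 and 3.38 ± 0.0606 FPKM; not called), and Mrpl46 and Mrps11 overlap each other. Other overlaps are those of the risen Mrps34 (Mapk8ip3, and Nme3 on the same strand), Mrpl27 (Eme1) and Mrps7 (Gga3 and Mif4gd). The fallen Mrpl53 overlaps Gm42688 on the same strand. The fallen Mrpl9, Mrpl13, Mrpl18, Mrpl44, Mrpl47, Mrpl49 and Mrps30 overlap other genes on the opposite strand. Ndufb5, one of the genes that overlap Mrpl47, fell as well. The values of all 23 members are uncertain to that extent. Among the 55 tested members with no such overlap 31 fell and 8 rose, with a median log2 difference of -0.181.

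A divergent gene, one that starts within 1000 bases on the opposite strand, was annotated for 18 members, and both genes were tested in 16 pairs. Beside the 11 members of these pairs that fell, the partner fell in 4 pairs, rose in 4 and did not pass in 3. Over all genes tested, 28.6% fell and 36.5% rose. Mrpl32 and the proteasome gene Psma2 both fell (-0.35 and -0.30), as did Mrpl50 and Zfp189 (-0.27 and -0.35), Mrps27 and Ptcd2 (-0.25 and -0.21), and Mrpl49 and Fau (-0.13 and -0.21). Ptcd2 is itself a mitochondrial RNA-binding protein, and Fau encodes a cytosolic ribosomal protein. Mrps18c fell beside the DNA helicase gene Helq (-0.36 and 0.16), Mrps18b beside Ppp1r10 (-0.24 and 0.31), Mrpl40 beside the histone chaperone gene Hira (-0.26 and 0.14) and Mrpl57 beside Ska3 (-0.16 and 0.16), where the partners rose. Mrpl37 and Cyb5rl both rose (0.12 and 0.22).

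**Figure D3:**
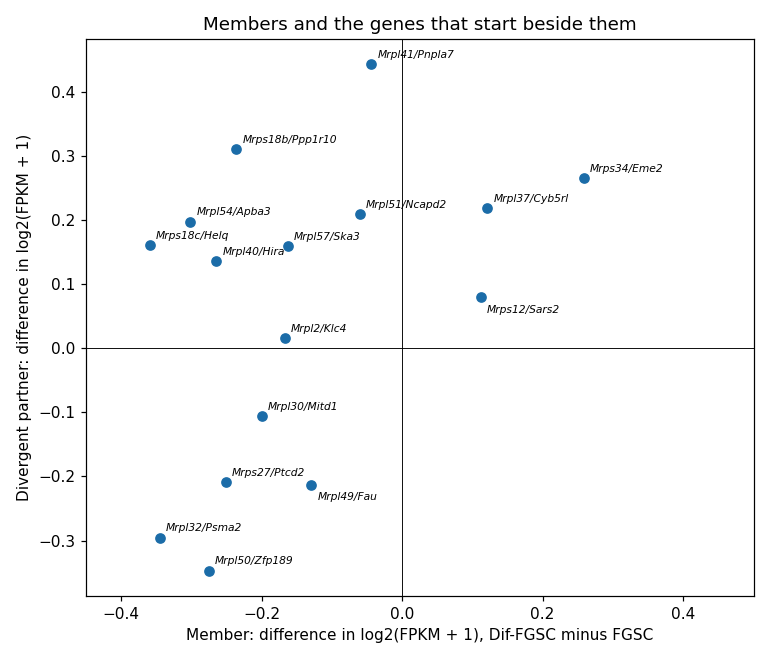
Difference in log2(FPKM + 1), Dif-FGSC minus FGSC, of a member (x axis) and of the gene that starts beside it on the opposite strand (y axis), for the 16 pairs with both genes tested. Each point is a pair, named member first. Fallen members have partners on both sides of 0, from Zfp189 at -0.35 to Ppp1r10 at 0.31.

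Mitoribosomal proteins whose genes carry other names showed both directions as well. Of 5 tested, 3 fell and 1 rose (median -0.172), against 28.6% and 36.5% of all genes tested. Ptcd3 (38.8, 38.2 and 37.6 FPKM, then 32.5, 33.8 and 35.0 FPKM), Chchd1 (-0.23 ± 0.058) and Aurkaip1 (-0.21 ± 0.037), all of the small subunit, fell. Gadd45gip1, of the large subunit, was at 54.0, 53.6 and 49.3 FPKM in FGSC and at 62.8, 62.3 and 57.0 FPKM in Dif-FGSC, and rose by 0.21 ± 0.051. Dap3, the GTP-binding protein of the small-subunit head, did not pass (5.17 ± 0.250 and 5.51 ± 0.104 FPKM).

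Of 24 tested factors that assemble the mitochondrial ribosome or modify its RNA, 8 fell and 5 rose (median -0.085). These were 33.3% and 20.8%, against 28.6% and 36.5% of all genes tested, so the share that fell was near that of all genes. Mrm1, which methylates the large ribosomal RNA, fell from 10.3 ± 0.361 to 6.67 ± 0.280 FPKM (SD, n = 3; log2 difference -0.56). Tfb1m, which methylates the small ribosomal RNA, was at 11.4, 12.5 and 11.9 FPKM in FGSC and at 7.94, 8.45 and 10.3 FPKM in Dif-FGSC (-0.40 ± 0.085). The GTPase gene Noa1 rose from 59.3 ± 1.91 to 77.7 ± 1.52 FPKM (0.39), and Mpv17l2 from 28.2 ± 1.37 to 35.8 ± 1.29 FPKM (0.33). Malsu1, whose protein binds that of Mrpl14 on the assembling large subunit, fell from 66.0 ± 2.61 to 52.6 ± 0.873 FPKM (-0.32), where Mrpl14 rose. Fastkd2 was listed at 0 in all FGSC libraries and at 0.925, 0.826 and 1.02 FPKM in Dif-FGSC, Ybey was listed at 0 in every library, and neither these nor Gtpbp10 passed the filter.

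Of 17 mitochondrial translation factors 8 fell and 2 rose (median -0.086). These were 47.1% and 11.8%, against 28.6% and 36.5% of all genes tested. Mtrf1l and Mtrf1, release factors, fell by 0.36 ± 0.048 and 0.21 ± 0.063, and Slirp, which stabilises mitochondrial messenger RNA together with Lrpprc, fell by 0.29 ± 0.054. Pdf, which removes the formyl group from new peptides, rose from 29.6 ± 0.616 to 39.9 ± 1.76 FPKM (0.42). Lrpprc rose by 0.09 ± 0.031, Tufm, the elongation factor that delivers transfer RNA, fell by 0.10 ± 0.029, and the initiation factor gene Mtif3 fell by 0.16 ± 0.057. The calls of Mtrf1, Lrpprc, Tufm and Mtif3 each ended without FGSC 2, when 4 genes of the list fell and 1 rose. Tsfm, Gfm1 and Mtif2 did not pass (-0.08, -0.09 and 0.07).

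Of 20 genes that charge mitochondrial transfer RNA 8 fell (40.0%) and 1 rose (5.0%), with a median of -0.078. Over all genes tested, the shares were 28.6% and 36.5%. The rise, of the valine enzyme gene Vars2, was not called without Dif-FGSC 1 or Dif-FGSC 2. Lars2, the leucine enzyme, was at 19.7, 46.2 and 25.4 FPKM in FGSC and at 14.4, 13.5 and 14.1 FPKM in Dif-FGSC. FGSC 2 stood well above the other libraries, and the log2 difference of -0.98 ± 0.261 became -0.64 without it. Fars2, the phenylalanine enzyme, fell from 7.36 ± 0.896 to 5.35 ± 0.236 FPKM (-0.39), and Gatb from 10.8 ± 0.400 to 8.93 ± 0.239 FPKM (-0.24).

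Of 22 genes that copy mitochondrial DNA into RNA, maintain it or process the RNA, 7 fell and 6 rose (median 0.006). The shares of 31.8% and 27.3% stand beside 28.6% and 36.5% of all genes tested. Elac2, which cuts the 3′ ends of transfer RNA, was at 10.9, 13.01 and 9.81 FPKM in FGSC and at 41.0, 39.7 and 40.0 FPKM in Dif-FGSC (1.76 ± 0.085). Polrmt, the mitochondrial RNA polymerase, rose from 10.3 ± 0.208 to 14.5 ± 0.852 FPKM (0.46), and Tfam, its DNA-packaging partner, fell from 24.98 ± 0.954 to 21.2 ± 0.665 FPKM (-0.22). Ssbp1, the single-strand DNA binding protein, rose by 0.58 ± 0.079, and the termination factor family members Mterf1a and Mterf2 fell by 0.65 ± 0.064 and 0.54 ± 0.133.

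Of 13 regulators known to act on nuclear genes of mitochondria 11 were tested, and 6 rose and 3 fell (median 0.155). These were 54.5% and 27.3%, against 36.5% and 28.6% of all genes tested. Without FGSC 1 or without Dif-FGSC 2, 1 regulator fell. The coactivator gene Ppargc1b was at 2.79, 2.64 and 2.37 FPKM in FGSC and at 6.28, 6.12 and 5.90 FPKM in Dif-FGSC (0.98 ± 0.055). The related Pprc1 rose from 13.2 ± 0.205 to 17.6 ± 0.302 FPKM (0.39), while Ppargc1a was at or below 0.00238 FPKM in every library. Nrf1 rose from 2.55 ± 0.0436 to 3.32 ± 0.104 FPKM (0.28), Sp1 from 10.6 ± 0.523 to 15.01 ± 0.478 FPKM (0.46) and Gabpb2 from 6.17 ± 0.360 to 7.88 ± 0.149 FPKM (0.31). Gabpb1 fell from 2.94 ± 0.135 to 2.47 ± 0.0373 FPKM (-0.18), a call kept under every alternative fit that tested it. Gabpa, the DNA-binding subunit of GABP, was at 24.99, 20.9 and 26.3 FPKM and then at 19.9, 18.9 and 20.4 FPKM (-0.27 ± 0.080), a call that ended after rescaling to TPM and without FGSC 1, FGSC 3 or Dif-FGSC 2. Yy1 and Esrra did not pass (-0.03 and 0.07).

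Transcripts for proteins of the cytosolic ribosome and of the respiratory chain, which the mitochondrial ribosome serves, were mostly lower too. Of 79 tested cytosolic ribosomal protein genes 67 fell (84.8%) and 2 rose (2.5%), with a median of -0.287. Over all genes tested, 28.6% fell and 36.5% rose. Among those that fell were Rpl17 (-0.82 ± 0.109), Rpl23 (-0.65 ± 0.026) and Rps6 (-0.56 ± 0.047). With quantile normalization 39 of the 79 fell and 8 rose. Of 79 tested nuclear genes of the respiratory chain and ATP synthase 49 fell (62.0%) and 7 rose (8.9%), with a median of -0.176. Ndufa13 (-0.88 ± 0.049) and Atp5g2 (-0.75 ± 0.056) fell, while Ndufa5 rose from 23.9 ± 0.232 to 45.8 ± 1.02 FPKM (0.91) and Cox6a2 was at 0.167, 0.139 and 0.698 FPKM and then at 4.36, 3.09 and 2.52 FPKM (1.70 ± 0.194).

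**Figure D4:**
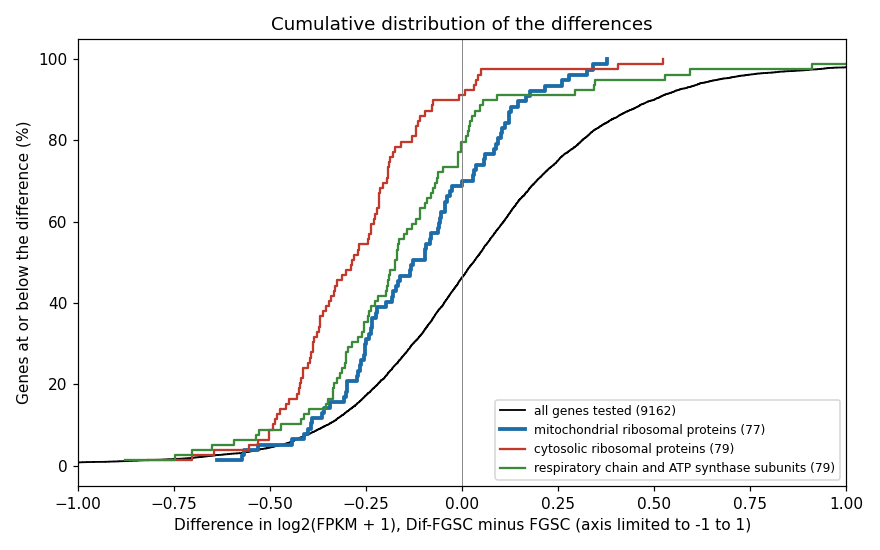
Share of genes (y axis, percent) at or below each difference in log2(FPKM + 1), Dif-FGSC minus FGSC (x axis, limited to -1 to 1), for all 9162 genes tested and 3 groups of genes. The medians are 0.029 for all genes, -0.129 for mitochondrial ribosomal proteins, -0.176 for respiratory chain and ATP synthase subunits and -0.287 for cytosolic ribosomal proteins.

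Libraries of a group were close to each other. The coefficient of variation of a member had a median of 3.65% in FGSC and 3.63% in Dif-FGSC, and reached 10.4% for Mrps33 in FGSC and 12.7% for Mrpl48 in Dif-FGSC. All members together summed to 4107 to 4246 FPKM in FGSC and 3815 to 3915 FPKM in Dif-FGSC. As a share of all FPKM in a library this was 1.094% to 1.123% in FGSC and 1.074% to 1.098% in Dif-FGSC, and these ranges overlapped. Over the 56 members with at most 6 digits, the log2 difference had a Pearson r of -0.07 with log2 transcript length and 0.04 with log2 mean level, across genes that share the same 6 libraries and are not independent replicates.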

How the data were processed

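Poly(A) RNA of 6 mouse cell samples was sequenced, 3 per group, with a KAPA stranded kit per the labels' protocols. The authors deposited FPKM values with 1 row per gene symbol. HISAT2, Cufflinks 2.2.1 and the build mm9 are named in the submitters' processing notes, without their roles. The column prefixes con and dif were read as FGSC and Dif-FGSC, and every direction rests on that reading. Of 24674 rows 2 duplicates were dropped, and 1 further value column was not used. The FPKM were tested with limma 3.58.1 in R 4.3.3 (moderated variances that follow the intensity trend), as log2(FPKM + 1), over genes with a mean of at least 1 FPKM, with Benjamini-Hochberg adjustment over all of them. FPKM hold no counts, so no count model was used, and the scale understates changes of low genes. Errors after a log2 difference are SE and after FPKM are SD. Depth was estimated from 4428 single-transcript genes, of whose low values 74.3% to 77.7% came within 0.1 of a whole number of fragments. GENCODE (GRCm38), a build other than mm9, served for neighbours, exon overlaps and transcript lengths. Those lengths enter the depth estimate, the fragment numbers of members and the correlation with transcript length. Members and lists were chosen with earlier results of these data known. Given in full were the 8 largest rises and falls among called members without overlap, the 4 highest and lowest levels, the Mrps18 paralogues and examples of each role, and from each other list up to 4 called genes with the largest differences plus factors fixed by name. The overlapping genes, the divergent partners, Vars2, Malsu1, Gabpb1 and the full values of Mrpl28, Mrpl32, Mrpl58, Mrps9, Mrps15 and Mrps36 were chosen after the values were seen. Some genes that this rule covers are not reported here.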

Additional observations from a re-analysis of the deposited data

How the results depend on the processing

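Over 14 alternative fits, 41 of the 53 called members kept their call in each (32 lower and 9 higher), 12 lost it in at least 1, and no called difference reversed. Members that rose and fell numbered 13 and 40 as reported and 11 and 41 with the replicate block. Same-numbered libraries deviated from their group means with correlations of 0.012 to 0.173, and other pairs of libraries with -0.218 to 0.106. FGSC 1 and FGSC 3 correlated best with their own number and FGSC 2 with Dif-FGSC 1. Not every pair was above 0.1, so the numbers were not taken to pair the libraries. Rescaling to TPM gave 20 rises and a median of -0.051, and median-ratio scaling 9 rises, 45 falls and a median of -0.162. The median over all genes tested moved as well, from 0.029 as reported to 0.109 with TPM and -0.001 with median-ratio scaling. Leaving out 1 library at a time gave 10 to 12 rises, 35 to 43 falls and medians from -0.14 to -0.106. Among members with at most 6 digits the median was -0.097, and among members with no exon overlap with another protein-coding gene it was -0.181 with 8 rises, both choices made after the data were seen and both over fewer genes. Small-subunit rises ranged from 3 to 9 and large-subunit rises from 6 to 11. Falls ranged from 11 to 12 in the small subunit and from 20 to 32 in the large subunit. Across the same fits, rises and falls ranged from 3 to 6 and 6 to 13 for assembly factors, 1 to 3 and 3 to 10 for translation factors, 0 to 6 and 6 to 9 for transfer RNA synthetases, 3 to 7 and 5 to 8 for mitochondrial transcription, 3 to 6 and 1 to 3 for regulators, 2 to 8 and 39 to 68 for cytosolic ribosomal proteins, and 5 to 13 and 39 to 53 for respiratory subunits. The causes of these shifts were not tested. Depth is known only as an estimate, so the counting error of a single member is approximate.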
